A study of Sus scrofa with 28 samples.

Results

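KERA and FMOD were measured in the loin muscle of piglets of 2 genetic types, Duroc × Iberian (DU×IB) and Iberian (IB). KERA codes for keratocan and FMOD for fibromodulin, and each was read by 1 probe set of the 5226 probe sets in the table, or 2 of its 2275 named genes. The probe sets were found by gene symbol in the study's list of differential probe sets, as the annotation of the array names neither of them. That list was drawn from these same arrays, so that a difference between genetic types in KERA or FMOD is no independent evidence of its direction. The study's qPCR on RNA of the same piglets also had both genes higher in DU×IB, by smaller ratios than its arrays.

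Keratocan and fibromodulin are small leucine-rich proteoglycans, secreted proteins with a core of leucine-rich repeats that binds collagen and carries keratan sulfate chains in some tissues. They attach to the surface of growing collagen fibrils and help to set fibril diameter and spacing. Keratocan is best known from the cornea and is also expressed in tendon, while fibromodulin is abundant in tendon and cartilage, binds type I collagen, takes part in its cross-linking by lysyl oxidase and can bind TGF-beta. In skeletal muscle, collagen fibrils with their proteoglycans form the sheaths around fibres and fibre bundles that pass force to the tendon.

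The DU×IB group comprised 14 male piglets of Iberian sows inseminated with Duroc semen, all of which carried, by the study's genotyping, the mutant intronic IGF2 allele of their Duroc sire. The IB group comprised 14 male piglets of Iberian sows mated to Iberian boars. Piglets of both groups were kept with their mothers and killed at weaning, at 28 days of age, and RNA of the Longissimus dorsi at the last rib was hybridized to 1 porcine array per piglet. Piglets are taken as the replicates. The tests and correlations below treat littermates as independent, so that their p-values can be too small. Their litters are not in the labels, and as the crossbred piglets came from few litters, genetic type cannot be told apart from litter and sire.

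Values are log2 expression levels made with GCRMA, with array medians between 6.01 and 7.05. The arrays were hybridized in 2 series that the labels do not name. The spike-in controls parted the arrays into 16 (8 of each genetic type, mean control signal 8.93 to 9.68) and 12 (6 of each, 6.19 to 7.01). Array medians ran from 6.01 to 6.71 in the series of 16 and from 6.875 to 7.05 in the series of 12. The differences of KERA and FMOD between genetic types, and the correlation of the 2 genes, were also taken within these series. Of the list of muscle fibre genes 1 of 14 had a probe set in the table, PYGM, the glycogen phosphorylase of muscle, at 8.88 ± 0.51 in DU×IB and 9.00 ± 0.89 in IB (SD, n = 14 each). The table holds only probe sets that passed the study's filter on variation over arrays, so that genes with steady levels are not analysed here.

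KERA was 3.81-fold higher in DU×IB than in IB, and FMOD was 3.81-fold higher too. The KERA level in DU×IB piglets had a lowest value of 6.32, a median of 8.70 and a highest value of 9.87, against a lowest value of 5.01, a median of 6.13 and a highest value of 8.54 in IB piglets. All 14 DU×IB piglets lay above the IB median and 8 of them above the highest IB piglet, while 8 of the 14 IB piglets lay below the lowest DU×IB piglet. The groups thus overlapped in the upper IB and the lower DU×IB piglets, as they did in nearly every probe set (0.0383% of all probe sets had groups that did not overlap). The mean KERA level was 8.35 ± 1.05 in DU×IB and 6.42 ± 1.09 in IB (SD, n = 14 each), a log2 difference of 1.93 (SE 0.38, 95% interval 1.17 to 2.70). The limma test with Benjamini-Hochberg adjustment over all probe sets gave an adjusted p of 0.00529, and a two-sided permutation test of the means gave p = 0.00018. Limma set the difference of means against its standard error, which comes from the spread between piglets within a genetic type. Both tests counted littermates as independent, and the spread between litters was not measured. As the samples were whole tissue, fewer cells of a type and less RNA per cell cannot be told apart in this or any later difference.

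The FMOD level in DU×IB piglets had a lowest value of 8.55, a median of 9.81 and a highest value of 11.6, against a lowest value of 5.54, a median of 8.32 and a highest value of 10.3 in IB piglets. Again all 14 DU×IB piglets lay above the IB median, 5 of them above the highest IB piglet, and 8 IB piglets lay below the lowest DU×IB piglet. A single IB piglet reached above the DU×IB median. The mean was 10.03 ± 0.92 in DU×IB and 8.10 ± 1.32 in IB (SD, n = 14 each), a log2 difference of 1.93 (SE 0.40, 95% interval 1.12 to 2.74, limma adjusted p = 0.00858, two-sided permutation p = 8e-05). By p-value, KERA ranked 12 and FMOD 17 among the 5226 probe sets, of which 0.995% passed the threshold (an adjusted p under 0.10, the rate used in the study), 0.765% as higher and 0.23% as lower in DU×IB. The lowest KERA and FMOD values lay above 3.40, the 5th percentile of all values in the table.

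**Figure D1:**
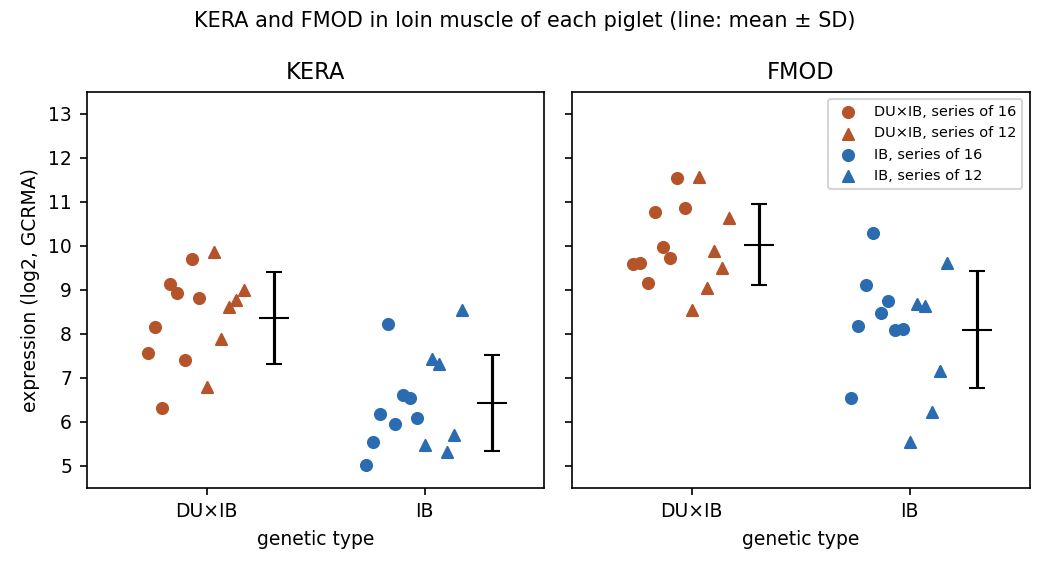
Expression of KERA (left) and FMOD (right) in loin muscle, on the log2 scale of GCRMA, with 1 point per piglet, circles for the series of 16 arrays and triangles for the series of 12, and lines for the mean ± SD of 14 piglets. All 14 DU×IB piglets lie above the IB median of each gene, and the highest IB values, 8.54 for KERA and 10.3 for FMOD, lie within the DU×IB range.

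Both genes had the same direction in each hybridization series. In the series of 16, KERA averaged 8.26 ± 1.11 in DU×IB and 6.27 ± 0.95 in IB (SD, n = 8 each; log2 difference 1.99, exact permutation p = 0.00326), and in the series of 12 it averaged 8.49 ± 1.05 in DU×IB and 6.63 ± 1.32 in IB (SD, n = 6 each; log2 difference 1.86, exact permutation p = 0.0325). FMOD averaged 10.16 ± 0.82 in DU×IB and 8.44 ± 1.06 in IB in the series of 16 (SD, n = 8 each; log2 difference 1.71, exact permutation p = 0.0028), and 9.86 ± 1.09 in DU×IB and 7.64 ± 1.59 in IB in the series of 12 (SD, n = 6 each; log2 difference 2.22, exact permutation p = 0.0216). Adjusted over all probe sets within 1 series, neither gene passed (limma adjusted p of 0.202 and 0.119 for KERA and of 0.255 and 0.11 for FMOD in the series of 16 and of 12). With all 28 piglets and the series as a block both passed (limma adjusted p = 0.00423 for KERA and 0.00619 for FMOD), beside 2.77% of all probe sets, 2.07% as higher in DU×IB. The difference between genetic types was not shown to differ between the series for either gene. The interaction, as the series of 12 minus the series of 16, was -0.13 for KERA (SE 0.78, limma adjusted p = 0.971) and 0.50 for FMOD (SE 0.80, adjusted p = 0.900). The level itself differed between the series of 12 and the series of 16 by 0.30 for KERA (SE 0.38, adjusted p = 0.482) and by -0.55 for FMOD (SE 0.40, adjusted p = 0.211), although 4185 of the 5226 probe sets were called between the series.

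The same piglets stood high or low in both genes. DU×IB replicate 10 had the highest levels of both, 9.87 of KERA and 11.6 of FMOD, followed by DU×IB replicate 7, with 9.71 of KERA and 11.5 of FMOD. At the lower end of the DU×IB group, replicate 9 had 6.78 of KERA and the lowest FMOD level, 8.55, while replicate 3 had the lowest KERA level, 6.32, with an FMOD level of 9.15. In each gene 6 IB piglets lay above the lowest DU×IB piglet, and replicates 14 and 4 were the highest of them. IB replicate 14 had the highest KERA level among IB piglets, 8.54, with 9.62 of FMOD, and IB replicate 4 had 8.22 of KERA and the highest FMOD level among IB piglets, 10.3. The lowest KERA level was 5.01 in IB replicate 1, with 6.54 of FMOD, and the lowest FMOD level was 5.54 in IB replicate 9, with 5.47 of KERA.

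KERA and FMOD were positively correlated over piglets within each genetic type. Pearson's r was 0.854 in DU×IB (Spearman's rho 0.868, n = 14, permutation p = 0.00021 for r and 0.0002 for rho) and 0.816 in IB (rho 0.855, n = 14, permutation p = 0.00041 for r and 0.00014 for rho). Benjamini-Hochberg adjustment over the 11 relations computed gave 0.000385 for r in DU×IB and 0.000644 in IB. Without the 2 piglets farthest from the KERA median, r was 0.832 in DU×IB and 0.716 in IB. The correlation was not shown to differ between the genetic types (difference of Fisher's z 0.127, permutation p = 0.721).

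The correlation was about as high once group means were removed. With the means of genetic type and series taken out, r over the 28 piglets was 0.892 (rho 0.877, permutation p = 1e-05 for each, the smallest that the resampling can give), and 0.855 without the 2 piglets farthest from the median. With the type means taken out, r was 0.864 within the series of 16 and 0.946 within the series of 12. In the smaller sets, DU×IB piglets gave 0.882 in the series of 16 (n = 8, exact permutation p = 0.00419) and 0.929 in the series of 12 (n = 6, exact permutation p = 0.0111), and IB piglets of the series of 12 gave 0.959 (n = 6, exact permutation p = 0.0125). In the 8 IB piglets of the series of 16, r was 0.884 (exact permutation p = 0.0117), but rho was 0.643 (exact permutation p = 0.0962) and r fell to 0.253 without the 2 piglets farthest from the KERA median, so that the relation there rested on those piglets.

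**Figure D2:**
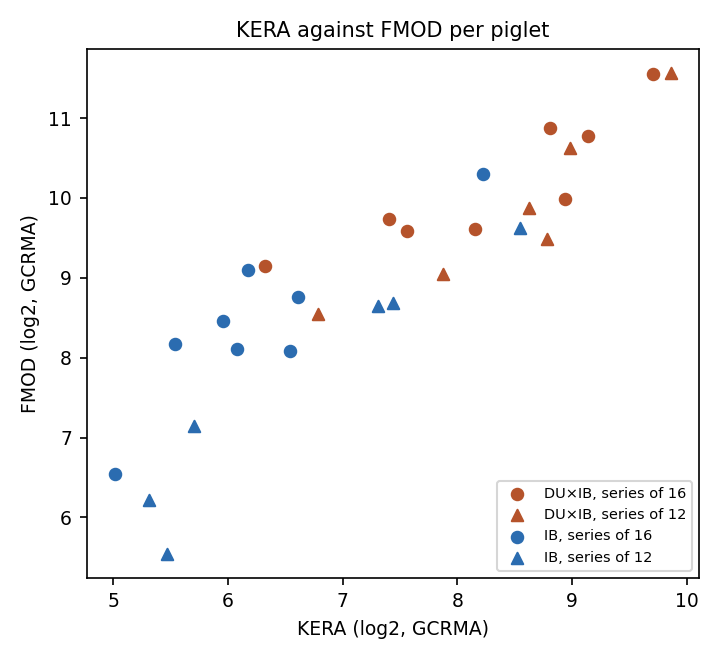
KERA (x axis) against FMOD (y axis) in each of 28 piglets, both on the log2 scale of GCRMA, coloured by genetic type and with circles for the series of 16 and triangles for the series of 12. Piglets high in KERA were high in FMOD within each genetic type, with r of 0.854 in DU×IB and 0.816 in IB.

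The size of the difference between genetic types was close for the 2 genes. The log2 difference of KERA minus FMOD within a piglet, a quantity whose absolute value depends on the probe sets, averaged -1.67 ± 0.55 in DU×IB and -1.68 ± 0.76 in IB (SD, n = 14 each). DU×IB and IB differed in it by 0.0017 (SE 0.25, 95% interval -0.49 to 0.49, two-sided permutation p = 0.995). The interval leaves room for unequal changes, and the sign of this difference was not the same in both series (0.27 in the series of 16, exact permutation p = 0.310, and -0.36 in the series of 12, exact permutation p = 0.206).

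Among small leucine-rich proteoglycans, KERA and FMOD were the 2 that passed the threshold. The table held 6 of 17 listed members, of which 2 were higher in DU×IB, beside 0.765% of all probe sets, and 0 were lower. The median log2 difference was 0.85, beside 0.0159 over all probe sets. This count and this median include KERA and FMOD themselves, and no other member passed in this fit. ASPN is, like KERA and FMOD, in the study's list of differential genes. ASPN, asporin, which binds collagen and TGF-beta, had a lowest value of 7.93, a median of 10.6 and a highest value of 11.5 in DU×IB, against 6.73, 9.27 and 11.2 in IB (log2 difference 1.11, SE 0.41, limma adjusted p = 0.322). With the series as a block ASPN passed as well (adjusted p = 0.0758). BGN, biglycan, which binds collagen and growth factors, averaged 6.04 ± 0.47 in DU×IB and 5.45 ± 0.88 in IB (SD, n = 14 each; log2 difference 0.59, adjusted p = 0.495, and 0.150 with the block). The groups of ASPN and BGN overlapped over most of their range, with 12 of 14 DU×IB piglets above the IB median in each. PRELP, a proteoglycan that anchors basement membranes to the matrix, and TSKU, tsukushi, a secreted inhibitor of growth factors, had differences near 0 (-0.06, SE 0.20, for PRELP and -0.02, SE 0.21, for TSKU, adjusted p = 0.998 for each). With means of type and series taken out, ASPN varied with KERA at r = 0.727 and with FMOD at 0.563, BGN at 0.381 and 0.583, TSKU at 0.231 and 0.338, and PRELP at -0.0583 and 0.128.

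PRELP is also the neighbour of FMOD in the RefSeq annotation of the pig genome (Sscrofa11.1), with BTG2, an antiproliferative gene, on the other side. Neither of these neighbours passed the threshold. The BTG2 level averaged 11.5 ± 1.01 in DU×IB and 11.0 ± 1.57 in IB (SD, n = 14 each; log2 difference 0.53, SE 0.46, adjusted p = 0.954). The neighbours of KERA, the proteoglycan genes LUM and EPYC, had no named probe set in the table and were not analysed here.

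Of the collagens that form fibrils, 3 of 11 listed genes had a probe set, with log2 differences above 0 in all 3 (median 0.73), beside 52.5% of all probe sets. Of the 3, 0 passed the threshold, beside 0.995% of all probe sets. All 3 are in the study's list, which was chosen on these arrays, so that their direction is no independent evidence. COL1A1, a chain of type I collagen, averaged 10.85 ± 0.78 in DU×IB and 9.65 ± 1.29 in IB (SD, n = 14 each; log2 difference 1.21, SE 0.37, limma adjusted p = 0.187). The differences of COL5A1, of the type V collagen inside the same fibrils, and of COL24A1 were 0.73 (SE 0.29) and 0.56 (SE 0.24). With the series as a block all 3 passed (adjusted p of 0.027, 0.0237 and 0.0887), beside 2.07% of all probe sets as higher. The call of these collagens thus depended on that term. COL1A1 varied with FMOD at r = 0.875 and with KERA at 0.693 once type and series means were taken out, and COL24A1 at -0.280 and -0.0722.

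Of the collagens that attach to the fibril surface, 2 passed beside KERA and FMOD. Of 10 listed genes 3 were measured (median log2 difference 0.70). Of these, 2 were higher in DU×IB, beside 0.765% of all probe sets. All 3 are again in the study's list. COL12A1, which links fibrils in tendon and fascia, had a lowest value of 6.32, a median of 7.98 and a highest value of 9.33 in DU×IB, against 3.94, 6.40 and 7.96 in IB. Its groups overlapped, with 8 of 14 DU×IB piglets above the highest IB piglet, and its log2 difference was 1.52 (SE 0.37, limma adjusted p = 0.0432). COL14A1, which regulates early fibril growth, averaged 11.02 ± 0.37 in DU×IB and 10.33 ± 0.41 in IB (SD, n = 14 each; log2 difference 0.70, adjusted p = 0.0456), and all 14 DU×IB piglets lay above the IB median. That call was lost when each array was centred on its median (adjusted p = 0.128), whereas COL12A1 kept it (0.066). COL16A1 had a log2 difference of 0.60 (SE 0.18, adjusted p = 0.183, and 0.051 with the block).

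Enzymes and chaperones of collagen processing were represented by 9 of 27 listed genes. Of these, 2 were higher in DU×IB, beside 0.765% of all probe sets, 0 were lower, and the median log2 difference was 0.47. Of the 9, 4 are in the study's list, the 2 that passed among them. LOX, lysyl oxidase, which starts the cross-linking of collagen and elastin, had a lowest value of 6.67, a median of 7.38 and a highest value of 8.69 in DU×IB, against 5.55, 6.65 and 7.71 in IB (log2 difference 0.89, SE 0.24, limma adjusted p = 0.0924). All 14 DU×IB piglets lay above the IB median, and the other probe set of LOX had a difference of 0.82 (adjusted p = 0.053). LOXL1, a lysyl oxidase of elastic fibres, had a log2 difference of 1.09 (SE 0.30, adjusted p = 0.0924). Centring each array on its median ended the calls of the reported LOX probe set and of LOXL1 (adjusted p of 0.141 and 0.187). FKBP14 and FKBP10, prolyl isomerases that fold collagen in the endoplasmic reticulum, had differences of 0.82 and 0.75 (adjusted p of 0.187 and 0.220), and both passed in the fit with the block (0.033 and 0.0929), FKBP14 also after centring (0.0486). The other probe set of FKBP14 had a difference of -0.16. LOX varied with FMOD at r = 0.767 and with KERA at 0.693, FKBP10 at 0.729 and 0.633, and LOXL1 at 0.600 and 0.560.

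**Figure D3:**
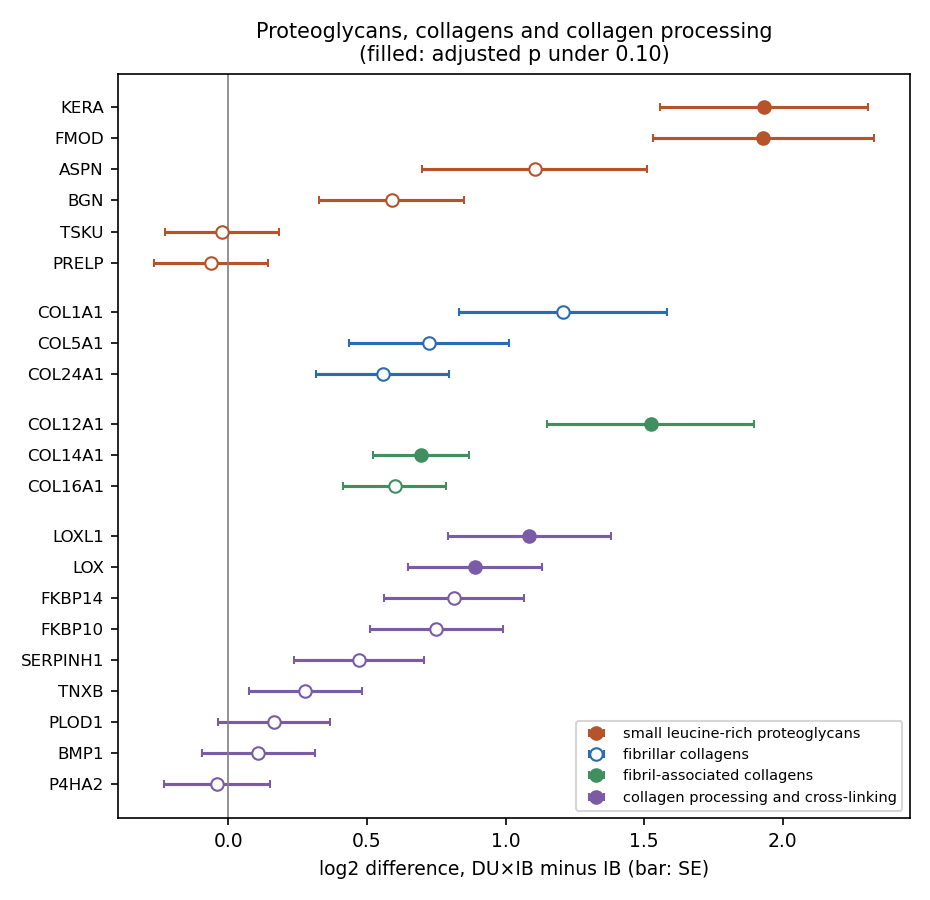
Log2 difference between genetic types, DU×IB minus IB (x axis; bars show the SE), for the measured small leucine-rich proteoglycans, fibrillar collagens, fibril-associated collagens and genes of collagen processing, with filled points for an adjusted p under 0.10 in limma. KERA and FMOD lie at 1.93, ahead of COL12A1 at 1.52, COL1A1 at 1.21 and ASPN at 1.11, while PRELP and TSKU lie near 0.

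Genes of the TGF-beta pathway, whose ligand fibromodulin can bind, did not pass. The table held 6 of 23, with 0 called, beside 0.995% of all probe sets, and a median log2 difference of 0.14. With so low a share, 0 calls among so few genes say little about them. The members of lowest p were ITGAV, an integrin chain that activates the ligand (0.33, SE 0.21), FST, follistatin (0.27, SE 0.21), MSTN, myostatin (-0.56, SE 0.46, with 0.44 in the series of 16 and -1.89 in the series of 12), and TGFBR1, a receptor chain (0.24, SE 0.22). This MSTN probe set was dim, with medians of 2.77 in DU×IB and 2.795 in IB, below 3.40, the 5th percentile of all values. The other MSTN probe set had a mean level of 5.95 and a difference of -0.40. Of 20 proteases and inhibitors that act on matrix proteoglycans 5 were measured and none passed, beside 0.995% of all probe sets. Their median was 0.28, with ADAMTS12 at 0.71 (SE 0.23, adjusted p = 0.230), MMP2 at 0.37 (SE 0.20), TIMP2 at 0.28 (SE 0.26) and TIMP1 at 0.23 (SE 0.22). Of 14 listed genes of keratan sulfate synthesis 0 had a probe set in the table, so that the sugar chains of KERA and FMOD are not analysed here.

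Other matrix glycoproteins had 15 of 37 genes in the table. Of these, 3 were higher in DU×IB, beside 0.765% of all probe sets, 0 were lower, and the median log2 difference was 0.56. Of the 15, 10 are in the study's list, the 3 that passed among them. FBN2, a fibrillin of microfibrils, averaged 7.97 ± 0.38 in DU×IB and 7.01 ± 0.72 in IB (SD, n = 14 each; log2 difference 0.96, limma adjusted p = 0.0298). THBS2, a thrombospondin that affects fibril assembly, had a difference of 1.26 (SE 0.30, adjusted p = 0.0353), and MFAP4, a microfibril-associated protein, of 0.82 (SE 0.23, adjusted p = 0.0961). In FBN2 and THBS2 all 14 DU×IB piglets lay above the IB median. After centring of the arrays FBN2 passed (adjusted p = 0.0587), THBS2 and MFAP4 did not (0.101 and 0.277), and POSTN, periostin, and MATN2, a matrilin, did (0.0921 and 0.0878). AEBP1, a collagen-binding protein, had a difference of 0.90 (SE 0.25, adjusted p = 0.106).

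As KERA and FMOD are themselves tendon genes, markers of tendon cells were set beside them. The table held 7 of 16 such markers, KERA and FMOD included, and 4 of the 7 passed as higher in DU×IB, beside 0.765% of all probe sets. Of the 5 markers other than KERA and FMOD 2 passed (3 in the fit with the block, beside 2.07%, and 1 after centring), and the 4 that passed are all in the study's list. The mean level of the 7 ran from 8.78 to 10.6 in DU×IB and from 7.66 to 9.93 in IB. Apart from KERA, FMOD, COL12A1 and COL14A1 the markers did not pass. THBS4, thrombospondin-4 of tendon and muscle, had a log2 difference of 0.65 (SE 0.22, adjusted p = 0.238, and 0.0887 with the block), CILP, a cartilage protein also made in tendon, of -0.42 (SE 0.24, adjusted p = 0.724) and EGR1, a transcription factor of tendon and of early responses, of 0.06 (SE 0.45, adjusted p = 0.998). EGR1's other probe sets differed in sign, at 0.19 and -0.01. The defining tendon genes SCX, MKX and TNMD, and the listed markers of cartilage, had no named probe set in the table. The part of tendon tissue in the difference of KERA and FMOD was not tested.

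The differences of KERA and FMOD between genetic types were also taken relative to the collagens and tendon markers of the same piglet. The mean of the 6 measured fibrillar and fibril-associated collagens ran from 8.27 to 9.49 in DU×IB (median 8.84) and from 6.77 to 8.80 in IB (median 8.06), a log2 difference of 0.88. Taken relative to this mean, the log2 difference between genetic types was 1.05 for KERA (SE 0.30; 1.27 in the series of 16 and 0.74 in the series of 12) and 1.04 for FMOD (SE 0.28; 1.00 and 1.10). The mean of the 5 tendon markers other than KERA and FMOD had a log2 difference of 0.50, and relative to it KERA had 1.43 (SE 0.30; 1.65 and 1.14) and FMOD 1.43 (SE 0.30; 1.37 and 1.5). These values are descriptions, and no test was made of them. With means of type and series taken out, the collagen mean varied with KERA at r = 0.831 and with FMOD at 0.901, and the tendon marker mean at 0.791 and 0.803. The 2 means are not separate, as COL12A1 and COL14A1 enter both. Of the remaining tendon markers, THBS4 varied with KERA at r = 0.636 and with FMOD at 0.797. EGR1 did so at 0.239 and 0.201, and CILP at 0.0224 and -0.0269.

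Markers of other cell types in loin did not pass, beside 0.995% of all probe sets that did. Of fibroblast markers 3 of 12 were measured, with a median log2 difference of 0.45 (THY1 0.71, SE 0.29, MFAP5 0.45, SE 0.20, and FBN1 0.32, SE 0.19), and their mean level ran from 9.57 to 10.5 in DU×IB and from 8.34 to 10.2 in IB. With means of type and series taken out, r with KERA and with FMOD was 0.571 and 0.674 for MFAP5. It was 0.540 and 0.557 for FBN1, and 0.219 and 0.344 for THY1. Of macrophage markers 5 of 9 were measured, all with differences below 0 (median -0.43), among them C1QA at -0.67 (SE 0.32), CD163 at -0.50 (SE 0.25), CTSS at -0.43 (SE 0.30) and AIF1 at -0.36 (SE 0.23), with a mean level from 4.76 to 5.84 in DU×IB and from 4.75 to 7.61 in IB. Their r lay between -0.295 and 0.217 with KERA and between -0.431 and 0.0212 with FMOD. Adipocyte markers (3 of 8) had a median of -0.43, with FABP4 at 0.37 (SE 0.23), CFD at -0.44 (SE 0.21) and PNPLA2 at -0.43 (SE 0.21), and a mean level from 10.3 to 11.4 in DU×IB and from 10.6 to 12.1 in IB. Endothelial markers (3 of 7) had a median of 0.19, with PECAM1 at 0.28 (SE 0.19), CDH5 at 0.19 (SE 0.19) and VWF at -0.50 (SE 0.30), and a mean level from 8.69 to 10.2 in DU×IB and from 8.38 to 10.4 in IB. The part of these cells in the difference of KERA and FMOD was not tested.

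To find the genes that varied most like KERA and FMOD from piglet to piglet, the mean of r with each was taken for the other 5224 probe sets, over 28 piglets and with the means of genetic type and series taken out. It had a median of 0.0187 and a central 95% range from -0.423 to 0.469, and 95 probe sets exceeded 0.5. COL12A1 came first, at 0.902 (0.895 with KERA and 0.909 with FMOD, beside 0.892 between KERA and FMOD themselves). Then came, among the probe sets with a gene name, COL14A1 at 0.821, COL1A1 at 0.784, and ANTXR1, a cell surface receptor that binds collagen, at 0.772. FNDC1, a fibronectin type III domain protein, had 0.762, FBN2 0.751 and LOX 0.730, followed by C16orf45 at 0.728 and COPZ2, a coat protein of transport vesicles, at 0.728. Of the 10 genes most like them, COL12A1, COL14A1, COL1A1, FBN2 and LOX are members of the lists described above, 9 of the 10 are in the study's list of differential genes, so that the direction of their differences was part of how that list was made and is no independent evidence. The r values share the same arrays and are given as descriptions.

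At the other end, the named genes least like KERA and FMOD were RNF19B, a ubiquitin ligase, at -0.646, CLYBL, a mitochondrial lyase, at -0.599, and MXI1, a repressor of the MYC network, at -0.593. CLYBL was lower in DU×IB, with a mean of 10.69 ± 0.87 in DU×IB and 12.29 ± 0.98 in IB (SD, n = 14 each; log2 difference -1.60, SE 0.33, limma adjusted p = 0.00858), and all 14 DU×IB piglets lay below its IB median. RNF19B and MXI1 had differences of -0.59 (SE 0.18, adjusted p = 0.187, and 0.074 with the block) and -0.34 (SE 0.24, adjusted p = 0.884, and 0.54 with the block). CLYBL and RNF19B are in the study's list, which was chosen on these arrays, so that their direction is no independent evidence.

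**Figure D4:**
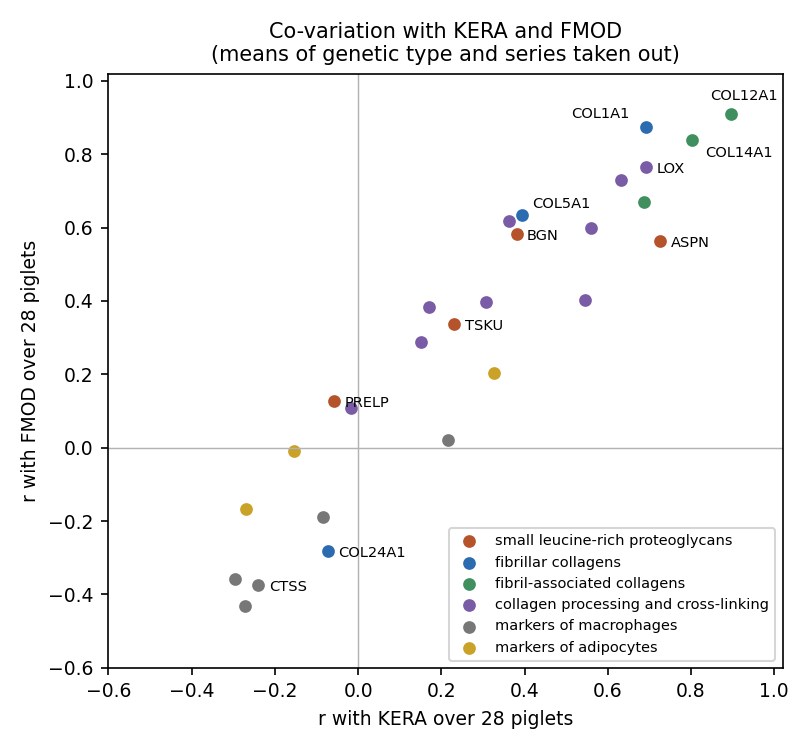
Pearson's r over 28 piglets with KERA (x axis) and with FMOD (y axis), after the means of genetic type and series were taken out, with 1 point per gene of the 6 lists named in the legend. COL12A1 lies nearest to the upper right corner (0.895 and 0.909), PRELP and COL24A1 lie near 0 with KERA, and most macrophage markers lie below 0.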

How the data were processed

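Loin muscle RNA of 28 male piglets, 14 DU×IB and 14 IB, was hybridized to 1 Affymetrix porcine array per piglet. The authors scanned the arrays with GCOS and deposited log2 expression values made with GCRMA in BRB-ArrayTools (background correction by probe sequence, quantile normalization, a summary per probe set). All 5226 probe sets met the study's filter when it was checked (a distance of 1.5-fold or more from the median in over 20% of the values). The study's list named 271 probe sets, its table of regulatory factors 301 and the platform annotation 2073, while 2581 were unnamed.

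The comparison of genetic types used two-sided moderated tests in limma, without covariates, and Benjamini-Hochberg adjustment over all probe sets, with a threshold of 0.10. The study's own model had a term for hybridization series. The labels do not name it, so it was recovered from 10 spike-in probe sets and used as a block and within series. Permutation tests drew 100000 resamples or were exact within a series. KERA, FMOD and the gene lists were chosen with earlier results of these data known. Named genes were the measured small leucine-rich proteoglycans, up to 4 members of lowest p of every other list, the 10 genes most like KERA and FMOD (1 of which is not reported here) and the 3 least like. BTG2, POSTN, MATN2 and the remaining tendon markers (THBS4, CILP, EGR1) were named after their values were seen. Where probe sets shared a gene, the one in the study's tables was taken, otherwise that of highest mean. The limma scripts were tested on simulated data. The number of arrays limits the precision.

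Alternatives were array median centring, quantile normalization, array weights, a trended and robust prior, a Welch test, dim probe sets left out (mean under 4), a threshold of 0.05, the replicate number as a block and leaving out each piglet. Software was limma 3.58.1 in R 4.3.3, and pandas 2.3.3, scipy 1.17.1, numpy 2.4.6 and matplotlib 3.10.9 in Python 3.11.15.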

Additional observations from a re-analysis of the deposited data

How the results depend on the processing

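The differences of KERA and FMOD stayed above 0 and past the threshold under 9 alternatives each (1.90 to 1.99 for KERA and 1.84 to 1.95 for FMOD, adjusted p at most 0.0199 and 0.0434). They missed it within a single series, where fewer piglets entered, at 1.99 and 1.86 for KERA and 1.71 and 2.22 for FMOD in the series of 16 and of 12. Leaving out each piglet in turn gave 1.82 to 2.10 for KERA (adjusted p 0.00113 to 0.0123) and 1.73 to 2.10 for FMOD (0.00245 to 0.0205), 34 (without DU×IB replicate 7) to 66 called probe sets, 0.889 to 0.915 for the correlation over all piglets (0.901 with all 28), and -0.0946 to 0.125 for the difference in KERA minus FMOD. Relative to the collagens it gave 0.954 to 1.17 for KERA and 0.923 to 1.15 for FMOD, and relative to the tendon markers 1.32 to 1.55 and 1.30 to 1.54. The correlation with only the type means taken out, an alternative chosen after seeing the data, was 0.821.

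The count of 52 called probe sets became 145 in the fit with a series block, 9 in the series of 16 alone, 229 in the series of 12 alone, 96 with array weights and 34 at a threshold of 0.05. With the replicate block it was 145, and KERA and FMOD kept their calls (adjusted p = 0.000727 and 0.00105). Replicate numbers were not taken as pairs, since same-numbered piglets deviated together at r over 0.1 in 12 of 14 numbers as deposited but in 2 of 14 once series means were taken out. Called genes were 3 fibrillar collagens with the series block (0 without it), 1 fibril-associated collagen with centring (2 without it), 1 gene of collagen processing with centring (FKBP14) and 4 with the block (2 otherwise), and 8 other matrix glycoproteins with the block (3 without it). Of all probe sets, 2.07% passed as higher with the block and 0.765% without it, and 37 of 5226 did with centring. The cause of these shifts in counts was not tested. Of the 10 genes most like KERA and FMOD, 8 were shared when no means were taken out and 10 with centring.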
